A study of Mus musculus with 4 samples.

Results

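The histone genes of Hepa1-6 cells, a line from a mouse hepatocellular carcinoma, were examined. The members were selected on their gene symbols alone, as every listed gene whose symbol begins with Hist1h to Hist4h, H1f, H2af or H3f3 and does not carry the pseudogene suffix. This gave 87 of the 54838 genes listed. They comprise 63 core histone genes with clustered symbols (20 H2A, 18 H2B, 12 H3 and 13 H4), 10 linker H1 genes, 10 listed under H2A variant symbols and 4 under H3.3 symbols. By annotation, 4 of the 87 are pseudogenes (Hist1h2aj, Hist1h2al, H2afy3 and H3f3c), and H3f3aos is an antisense gene. The group was picked out on the difference between the study's genotypes, with earlier results of these data in view, so that difference is given here as a description and nothing is read from how many members passed the test. The study compared NC cells, which are wild type for Acvr2a, with cells in which Acvr2a, the gene of a type II activin receptor, was knocked out (KO). Each group had 2 libraries of bulk RNA from untreated cells of the same line. The KO cells are described as subclones in the series' text, and whether each KO library stands for its own subclone is not stated there. No label says that replicates were separate cultures, so p-values measure only the spread between these samples, which may be technical. RNA was extracted with TRIzol and freed of DNA before strand-keeping libraries were made, and whether poly(A) RNA was selected or ribosomal RNA removed is not given in the sources used here.

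Core histones H2A, H2B, H3 and H4 form the protein spool of the nucleosome, and linker H1 binds where DNA enters and leaves it. Replication-dependent histone genes lie in clusters, are expressed mainly in S phase and give mRNAs that end shortly after a conserved stem-loop bound by the protein SLBP, without a poly(A) tail. Replacement histones such as H3.3, H2A.Z, macroH2A and H1.0 are made throughout the cell cycle from polyadenylated mRNAs and are placed by their own chaperones, and some clustered genes also yield longer polyadenylated transcripts, described above all in cells that leave the cycle.

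The 4 libraries held between 11597923 and 13910582 expected counts, which are read counts estimated per gene by the authors, with shared reads divided among the genes they match. CPM are counts scaled to a common library size, and TPM are the authors' values scaled by transcript length as well, used wherever genes are compared with each other. Acvr2a (chr2:48814109-48903269) had 7.12 and 7.80 CPM in NC against 5.69 and 7.18 CPM in KO, so the groups overlapped and the RNA level of the targeted gene did not tell them apart; its log2 fold change was -0.21 (SE 0.20, edgeR adjusted p = 0.433). A gene-level count does not show which exons were altered, and the genotype labels are taken as given. The 6 hepatocyte and hepatoma markers summed to between 1630 and 1721 CPM in NC and between 1753 and 1938 CPM in KO. Nearly all of this came from Alb, Trf, Afp and Hnf4a. Ttr was almost absent, with 2 counts over all libraries, and Apoa1 was low, at between 1.26 and 2.96 CPM. Single markers went opposite ways: Alb (0.41) and Trf (0.54) were called higher and Hnf4a (-0.995) and Afp (-1.21) lower, as log2 fold changes. Of the 4 leukocyte markers, which summed to at most 1.21 CPM, Cd3e was at 0, and of the 2 endothelial markers, at most 0.968 CPM, Cdh5 was at 0. The 3 fibroblast and stellate markers summed to between 1469 and 1479 CPM in NC and between 1608 and 1685 in KO, nearly all of it Dcn, which was not called; Col1a1 was called higher (2.73), at no more than 3.04 CPM in any library.

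The histone stem-loop is shown first because it is where a histone mRNA without a poly(A) tail would end, and because it was found in some members and not in others. Transcripts of GENCODE M21 (GRCm38) were searched after the stop codon, on the strand of the gene, for the histone stem-loop consensus of 16 bases. It was found in 47 of the 66 members with annotated sequence there and in 15 of 21058 other protein-coding genes (0.0712%). The windows below come from 4 members called higher in KO, of the linker, H2A and H4 classes, and from the H2A variant H2afx. Capitals mark the stem-loop, with 5 flanking bases on either side in lower case.

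Hist1h1c: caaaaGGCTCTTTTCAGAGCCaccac

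Hist1h2ac: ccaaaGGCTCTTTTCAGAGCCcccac

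Hist2h2aa2: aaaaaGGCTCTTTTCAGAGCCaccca

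Hist1h4i: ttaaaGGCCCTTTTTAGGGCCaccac

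H2afx: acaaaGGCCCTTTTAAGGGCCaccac

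The stem-loops of Hist1h1c, Hist1h2ac and Hist2h2aa2 are identical over all 16 bases, and this form was shared by 26 members of the H2A, H2B, H3 and linker classes. The H4 genes carried forms of their own: 7 of the 12 H4 genes with a stem-loop shared 1 form, and 2, among them Hist1h4i, shared the form printed above. In all, 9 forms were seen. By class the stem-loop was found in 11 H2A, 10 H2B, 9 H3, 12 H4 and 4 linker genes. H2afx was the sole variant gene with one. Between 21 and 58 bases (median 31) lay between the stop codon and the stem-loop.

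Promoters are shown for the linker genes that rose in KO at the highest levels, Hist1h1c and H1f0, and for Hist1h2ac, whose start lies 250 bases from that of Hist1h2bc; the latter had no entry of its own in the promoter table used here. Each is the RefSeq sequence on GRCm38.p6 from 250 bases before to 50 bases after the annotated start. Capitals mark matches, on either strand, to the box CCAAT, to the TATA box TATAAA, to the H1 box AAACACA and to the octamer of H2B promoters, ATTTGCAT; no matches overlap in these windows.

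Hist1h1c (H1f2 in RefSeq), chr13:23738557-23738856, plus strand: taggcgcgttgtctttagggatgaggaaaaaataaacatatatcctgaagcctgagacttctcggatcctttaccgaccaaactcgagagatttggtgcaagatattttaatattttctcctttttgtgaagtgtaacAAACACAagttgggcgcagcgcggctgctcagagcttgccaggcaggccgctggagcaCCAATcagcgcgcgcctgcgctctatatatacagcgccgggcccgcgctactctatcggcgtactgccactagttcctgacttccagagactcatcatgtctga

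H1f0, chr15:79027962-79028261, plus strand: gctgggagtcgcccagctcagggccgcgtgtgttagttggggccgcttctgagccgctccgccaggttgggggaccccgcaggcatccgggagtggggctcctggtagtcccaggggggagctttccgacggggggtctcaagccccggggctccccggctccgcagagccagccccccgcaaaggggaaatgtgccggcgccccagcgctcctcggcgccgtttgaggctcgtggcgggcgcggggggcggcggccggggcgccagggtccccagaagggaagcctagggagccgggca

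Hist1h2ac (H2ac6 in RefSeq), chr13:23683910-23684209, minus strand: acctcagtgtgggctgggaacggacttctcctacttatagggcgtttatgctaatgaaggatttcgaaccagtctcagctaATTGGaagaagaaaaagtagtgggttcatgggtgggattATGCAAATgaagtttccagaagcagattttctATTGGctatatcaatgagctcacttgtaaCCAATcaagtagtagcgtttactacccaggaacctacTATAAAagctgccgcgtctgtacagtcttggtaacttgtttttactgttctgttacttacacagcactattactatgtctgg

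The Hist1h1c window held AAACACA at position -112 and CCAAT at position -54 from the start. The H1f0 window held none of the 4 motifs and was 75.0% G and C, against 50.3% for Hist1h1c and 41.7% for Hist1h2ac. This H1f0 window follows the RefSeq start and ends before the start of the gene in GENCODE. The bases next to the GENCODE start of H1f0 were therefore not searched. The Hist1h2ac window held CCAAT at 3 places, the TATA box and the octamer. RefSeq promoters were matched for 77 members, with 78 entries. CCAAT was in all 18 H2A, all 17 H2B and all 10 H3 entries, but in 3 of 12 H4 entries, against 37.4% of all 32851 promoters of that length. TATAAA was in 46.2% of member entries and 13.6% of all promoters. AAACACA was in 5 of 10 linker entries, among them Hist1h1c, Hist1h1d and Hist1h1e, against 7.18% of all promoters. The 10 linker entries include the H1f0 window printed above. The octamer was in 7 of 18 H2A and 7 of 17 H2B entries against 1.74% of all promoters. H2A and H2B genes that start back to back can share much of their windows. Since both strands were searched, the same site can be counted in both classes, as for the octamer of Hist1h2aa and Hist1h2ba. These matches are descriptions of the letters in each window.

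KO cells had more RNA of linker H1 genes and of clustered core genes, each as a sum. Among the linker genes Hist1h1c had the largest fold, at 6.48-fold, while most of the added CPM came from H1f0. The linker genes H1fx and Hist1h1e were not called. On counts, KO cells had less of 3 of the H2A variants, and the H3.3 genes moved in opposite directions. On log2(TPM + 1) and log2(TPM + 0.1) the calls of H2afx, H2afz and H3f3a were lost. Of the 3 H2A variants, H2afj alone kept its call under all 12 alternative settings. Of the 87 members, 24 had no count in any library, 37 had counts but fell under the filter on low counts, and 26 were tested. Of these, 10 were higher in KO, 5 were lower and 11 were not called (edgeR quasi-likelihood test, Benjamini-Hochberg adjusted p under 0.05 over all genes tested). Over the transcriptome 37.9% of the 12510 tested genes were called, 19.7% higher and 18.2% lower. That split depends on scaling: of all genes, 2459 were higher and 2282 lower in the counts, 1467 and 691 on log2(TPM + 1), and 1932 and 3207 once a trend with gene length was removed. The median log2 fold change of the tested members was 0.67 for the clustered core, 0.70 for linker H1 and -0.36 for the variants, beside -0.0037 over all genes tested. On log2(TPM + 1) these medians were 0.44, 0.25 and -0.18, and without KO replicate 2 the variant median was -0.22. Members tested at low levels passed the filter partly through the group where they were high, so these medians and counts describe the tested members and do not stand for all 87.

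**Figure D1:**
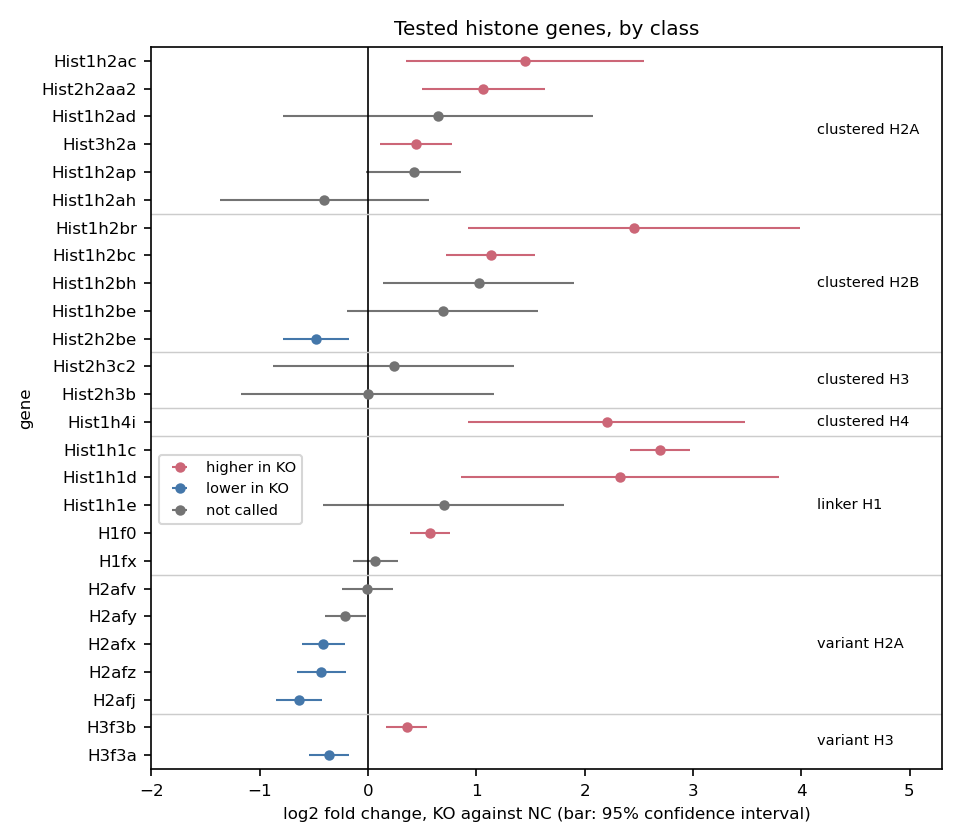
Log2 fold change of KO against NC (x axis) for each of the 26 tested histone genes (y axis, by class); the point is the estimate and the bar its 95% confidence interval, coloured by call. Hist1h1c stands at 2.70 with a narrow interval, the variant H2A genes lie at or under 0, and H3f3b and H3f3a fall on opposite sides of 0.

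Per length, most of the histone RNA in these libraries was variant RNA. If poly(A) RNA was selected, which the sources used here do not say, clustered mRNAs without a tail would be under-represented, so the shares below describe the libraries and not the make-up of histone RNA in the cells. The variant H2A genes made up 47.7% and 46.3% of the summed TPM of all members in NC against 41.7% and 35.9% in KO. Linker H1 genes made up 12.2% and 12.7% in NC against 17.0% and 20.3% in KO. The 63 clustered core genes together gave 3.82% and 3.69% in NC against 5.31% and 5.80% in KO. In bulk RNA, fewer cells that express a gene and less RNA per cell cannot be told apart.

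Linker H1 RNA summed to 398 and 394 CPM in NC against 595 and 604 CPM in KO, a ratio of 1.51, with both KO libraries above both NC libraries. Hist1h1c (chr13:23738808-23740367, 1 exon), which encodes the linker histone also named H1f2, had 86 and 118 counts in NC against 712 and 685 in KO. In TPM these were 6.09 and 7.23 in NC against 47.6 and 42.7 in KO. The groups stood far apart, and the 4 counts were whole numbers, so they gave no sign of reads divided with another gene. Whether any of the reads also matched another gene was not examined. The log2 fold change was 2.70 (SE 0.14, 95% confidence interval 2.42 to 2.98, edgeR adjusted p = 1.09e-14). H1f0 (chr15:79028450-79030504, 1 exon), the replacement linker histone H1.0 known to build up in differentiated and resting cells, was the most abundant linker gene per length. It had 187 and 193 TPM in NC against 292 and 295 TPM in KO, or means of 315 ± 4.32 CPM against 469 ± 17.3 CPM (NC against KO, SD, n = 2 each). The 2 groups did not overlap, and the log2 fold change was 0.57 (SE 0.09, edgeR adjusted p = 1.76e-05). Its exon overlaps the predicted gene Gm49544 on the other strand.

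Hist1h1d (chr13:23553262-23560686) rose from a few reads, with 4 and 2 counts in NC against 19 and 14 in KO. The estimate was a log2 fold change of 2.33 (SE 0.72, edgeR adjusted p = 0.00437), and the call was lost without NC replicate 2 (1.79, adjusted p = 0.0544) and under DESeq2 (adjusted p = 0.0634). On the TPM scales it was not called either, at 0.21 on log2(TPM + 1) and 1.13 on log2(TPM + 0.1) (limma adjusted p = 0.328 and 0.156). H1fx (chr6:87980421-87981637), the linker histone H1.10, had 70.8 and 72.4 CPM in NC against 81.3 and 69.0 CPM in KO. These ranges overlapped and the gene was not called, with a log2 fold change of 0.07 (SE 0.10) that turned to -0.05 without KO replicate 1; its exon overlaps Gm47286 on the same strand. Hist1h1e (chr13:23620629-23622558) shares exon sequence with Hist1h2be on the same strand, so reads of these genes cannot be told apart with certainty. It had 8.28 and 6.88 counts in NC against 11.6 and 14.3 in KO and was not called, with a log2 fold change of 0.70 (SE 0.54).

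The make-up of linker RNA shifted towards Hist1h1c. Hist1h1c held 2.25% and 2.55% of linker TPM in NC against 10.9% and 10.2% in KO. H1f0 held 69.0% and 67.9% in NC against 66.8% and 70.6% in KO, ranges that overlap. H1fx held 28.5% and 29.3% in NC against 22.1% and 18.8% in KO, although its own level was not called different. The ratio of H1f0 to Hist1h1c, in TPM, was 30.6 and 26.6 in NC against 6.14 and 6.90 in KO. Of the other linker genes, the oocyte gene H1foo had 12 counts in all, Hist1h1a had 1, and Hist1h1b, the testis gene Hist1h1t and the spermatid gene H1fnt had none.

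**Figure D2:**
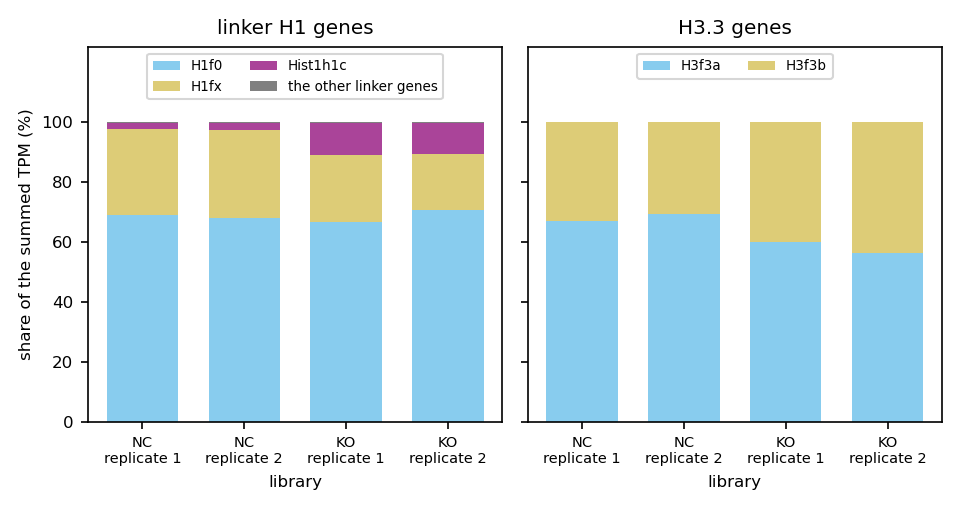
Share of the summed TPM (y axis, percent) of the linker H1 genes (left) and of the H3.3 genes (right) in each of the 4 libraries (x axis); each bar is 1 library and its colours are genes. Hist1h1c takes 2.25% and 2.55% of linker TPM in NC against 10.9% and 10.2% in KO, and H3f3b takes 33.2% and 30.7% of H3.3 TPM in NC against 40.0% and 43.7% in KO.

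The clustered core genes summed to 50.4 and 50.5 CPM in NC against 66.6 and 66.8 CPM in KO, a ratio of 1.32. Replicates lay close together in this sum and the groups did not overlap. Of 45 such genes with any count, 35 had counts that were not whole numbers, which shows that reads were divided with other annotated genes. These may be close copies or genes with overlapping exons, and the counts do not tell which. Single genes are therefore uncertain, and sums less so where reads were shared among the summed copies. By type, H2A summed to 20.6 and 20.1 CPM in NC against 28.9 and 30.4 in KO. H2B summed to 25.1 and 26.1 CPM in NC against 29.5 and 31.1 in KO, and H4 to 1.14 and 1.37 CPM in NC against 2.58 and 3.18 in KO. H3 did not separate the groups, with 3.61 and 2.89 CPM in NC against 5.54 and 2.15 in KO.

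Among the H2A genes, Hist1h2ap (chr13:21833026-21833507) was the most abundant per length. It had 25.2 and 23.4 TPM in NC against 34.1 and 34.2 in KO. These values did not overlap, but the gene was not called on counts, with a log2 fold change of 0.42 (SE 0.21, edgeR adjusted p = 0.119); it was called on log2(TPM + 1) at 0.48 (limma adjusted p = 0.0307). Hist2h2aa2 (chr3:96239749-96240276) had 11.9 and 8.77 TPM in NC against 24.9 and 20.7 in KO, with the 2 KO libraries about 2.09-fold above NC on counts. Its log2 fold change was 1.07 (SE 0.28, edgeR adjusted p = 0.00316), and its neighbouring copy Hist2h2aa1 had no count in any library. Whether reads that match both copies were all given to Hist2h2aa2 was not examined, so the rise may not belong to Hist2h2aa2 alone. Hist1h2ah (chr13:22035164-22035568) had 13.7 and 15.7 counts in NC against 9.67 and 13.9 in KO and was not called, with a log2 fold change of -0.40 (SE 0.47). Hist1h2ac (chr13:23681467-23683948) had 5.43 and 8.42 counts in NC against 16.3 and 22.0 in KO. The estimated log2 fold change was 1.45 (SE 0.54, edgeR adjusted p = 0.0254), and the call was lost without NC replicate 1 (1.29, adjusted p = 0.0883) and without KO replicate 2 (1.22, adjusted p = 0.187). It was also lost under DESeq2 (adjusted p = 0.172) and on both TPM scales, at 0.45 on log2(TPM + 1) and 1.18 on log2(TPM + 0.1) (limma adjusted p = 0.0734 and 0.0662). Hist3h2a (chr11:58954685-58956830) had 9.24 and 9.89 CPM in NC against 12.8 and 13.2 in KO. The log2 fold change was 0.44 (SE 0.16, edgeR adjusted p = 0.0303), its call was lost on leaving out any of the 4 libraries in turn (0.40 to 0.50, adjusted p between 0.0523 and 0.162), under DESeq2, on both TPM scales and with the length trend removed, and it shares exon sequence with Trim17 on the same strand. All 20 H2A genes have another annotated gene on the opposite strand, and whether reads were counted by strand is not given in the sources used here.

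The 2 leading H2B genes moved in opposite directions. Hist1h2bc (chr13:23684199-23692908), for which no stem-loop was found in the annotated transcripts, had 48.6 and 74.6 counts in NC against 138 and 149 in KO. Both KO libraries lay above both NC libraries, at a log2 fold change of 1.13 (SE 0.20, edgeR adjusted p = 5.9e-05). Hist2h2be (chr3:96221119-96223738), also without a stem-loop in its annotated 2192 bases after the stop codon, had 202 and 250 counts in NC against 154 and 189 in KO. Its log2 fold change was -0.48 (SE 0.15, edgeR adjusted p = 0.0114), and the call was lost without NC replicate 2 (-0.46, adjusted p = 0.0689) or without KO replicate 1 (-0.35, adjusted p = 0.107), under DESeq2 (adjusted p = 0.0787) and on both TPM scales (limma adjusted p = 0.137 and 0.136). Together the pair made up most of H2B RNA: in TPM, Hist2h2be held 42.0% and 47.4% of the H2B sum in NC against 17.6% and 24.8% in KO, and Hist1h2bc held 26.2% and 36.9% in NC against 41.1% and 50.8% in KO. In TPM, Hist2h2be thus held the larger share in both NC libraries and Hist1h2bc in both KO libraries. In CPM, Hist2h2be held the larger share in KO as well, with 39.6% and 45.0% against 35.5% and 35.5% for Hist1h2bc. Hist1h2br (chr13:21833743-21837530) had 1.87 and 4.34 counts in NC against 10.4 and 26.1 in KO. It was called higher at a log2 fold change of 2.46 (SE 0.75, edgeR adjusted p = 0.00365), but not without KO replicate 2 (1.64, adjusted p = 0.166) or on either TPM scale, and in TPM it had 1.20 and 0.18 in NC against 1.09 and 1.10 in KO, which overlap. The authors' effective length of this gene, which TPM divides by, lay between 146 and 1955 bases, so its value is uncertain. Hist1h2bl had 2.93 and 0 counts in NC against 5.42 and 0 in KO and was not tested.

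The H3 and H4 genes were near the limit of detection. Hist2h3b (chr3:96268654-96269141) had 6.73 and 14.0 counts in NC against 17.2 and 5.36 in KO, so the groups overlapped, and its log2 fold change was -0.0030 (SE 0.57), with a sign that changed between settings. Hist1h3h had 0 and 4.60 counts in NC against 9.50 and 0 in KO, and Hist1h3b had 10 and 5.34 in NC against 3.07 and 4.50 in KO; neither was tested. Hist1h4i (chr13:22040636-22041362) was the sole tested H4 gene. It had 4 and 4 counts in NC against 16.5 and 24 in KO, which did not overlap, at a log2 fold change of 2.20 (SE 0.63, edgeR adjusted p = 0.00272). Hist1h4k had 1 and 1 counts in NC against 2.58 and 2 in KO, and Hist1h4h had 0 and 2 in NC against 1.35 and 5 in KO; these differences were not detectable at this depth. The other 4 tested clustered genes, Hist1h2ad, Hist1h2be, Hist1h2bh and Hist2h3c2, were not called, at log2 fold changes of 0.65, 0.69, 1.02 and 0.24. Hist1h2ad had 0 and 13.6 counts in NC against 9.48 and 14.4 in KO, and its value rests on which NC library is kept: it was -0.23 without NC replicate 1, and without NC replicate 2, which leaves NC at 0 counts, the gene was called higher (edgeR adjusted p = 0.00345). Hist2h3c2 turned to -0.34 without NC replicate 2 and stood at 1.04 without NC replicate 1, not called in either. Hist1h2be stood at 0.26 without KO replicate 1, and Hist1h2bh was called with plain library size (edgeR adjusted p = 0.0478). Over all classes, the 37 members with counts under the filter had between 1 and 38 counts in all, with a median of 6.95. Among them Hist1h2bg had 0 and 0 counts in NC against 7.23 and 6.55 in KO, and with no filter on low counts it was called higher (edgeR adjusted p = 0.00785). Hist2h3c1 was called in that setting too (edgeR adjusted p = 0.0261), but all of its 11.1 counts came from KO replicate 1. A count of 0 in a library allows up to 3 counts, or between 0.216 and 0.259 CPM, by counting error alone.

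The variant H2A genes summed to 722 and 670 CPM in NC against 587 and 480 CPM in KO, a ratio of 0.766. KO replicate 2 was the lowest library, and without it the log2 ratio moved from -0.38 to -0.25. In TPM the groups overlapped, with 1060 and 1036 in NC against 1071 and 737 in KO, a log2 ratio of -0.21. H2afj (chr6:136808244-136810074), which encodes an H2A variant that lies close to canonical H2A in sequence, had 104 and 92.5 CPM in NC against 69.6 and 56.8 in KO. It fell by 0.63 on the log2 scale (SE 0.10, edgeR adjusted p = 2.52e-05), without overlap between the groups. H2afx (chr9:44334694-44336077), the variant whose phosphorylation marks DNA breaks, had 109 and 100 CPM in NC against 84.0 and 73.4 in KO. The log2 fold change was -0.41 (SE 0.10, edgeR adjusted p = 0.00137), and it was not called on either TPM scale (limma adjusted p = 0.0772 and 0.0788). H2afj and H2afx each overlap a predicted gene on the other strand.

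H2A.Z, which replaces H2A around active promoters, comes from H2afz and H2afv. H2afz (chr3:137864487-137866922) had the highest TPM of all members, with 640 and 650 TPM in NC against 723 and 441 in KO, so in TPM the KO libraries lay on either side of NC. In CPM it had 337 and 314 in NC against 280 and 204 in KO, which did not overlap, at a log2 fold change of -0.43 (SE 0.11, edgeR adjusted p = 0.00265). Without KO replicate 2 the value was -0.22 (adjusted p = 0.112), under DESeq2 the adjusted p was 0.163, and on log2(TPM + 1) it was 0.545, so this fall rests largely on 1 library. The effective length that separates the units was 447 bases in KO replicate 1 and between 513 and 561 in the other libraries. H2afv (chr11:6427229-6444443) had 36.6 and 31.6 CPM in NC against 34.5 and 33.3 in KO, with the KO values inside the NC range. Its log2 fold change was -0.0045 (SE 0.11, 95% confidence interval -0.24 to 0.23), with a sign that changed between settings. MacroH2A from H2afy (chr13:56073619-56136361) had 136 and 131 CPM in NC against 119 and 112 in KO and was not called, at -0.21 (SE 0.09, edgeR adjusted p = 0.0723), although with the length trend removed it was (-0.25, adjusted p = 0.0264). Of the remaining variant H2A genes, H2afy2, which encodes another macroH2A, had 1.09 and 4.66 counts in NC against 7.99 and 6.93 in KO, the pseudogene H2afy3 had 8 counts in all, and H2afb1, H2afb2 and H2afb3 had none.

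H3f3a and H3f3b encode the same H3.3 protein, the H3 that is placed outside replication. H3f3a (chr1:180800832-180813943) had 324 and 307 CPM in NC against 258 and 235 in KO. It was lower in KO at a log2 fold change of -0.36 (SE 0.09, edgeR adjusted p = 0.00282), but in TPM the groups overlapped, with 538 and 578 in NC against 554 and 439 in KO, and on log2(TPM + 1) the call was lost (limma adjusted p = 0.38). H3f3b (chr11:116021912-116027962) had 412 and 378 CPM in NC against 511 and 500 in KO. It was higher at 0.36 (SE 0.09, edgeR adjusted p = 0.0031), and the call was lost without NC replicate 2 (0.30, adjusted p = 0.0548). The ratio of H3f3b to H3f3a in TPM was 0.497 and 0.442 in NC against 0.668 and 0.775 in KO, without overlap. The sum of both genes moved little, from 735 and 685 CPM in NC to 769 and 735 in KO. Both genes had counts that were not whole, and H3f3a lies opposite H3f3aos, which had 6 and 17 counts in NC against 8 and 7 in KO, and Gm17275.

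**Figure D3:**
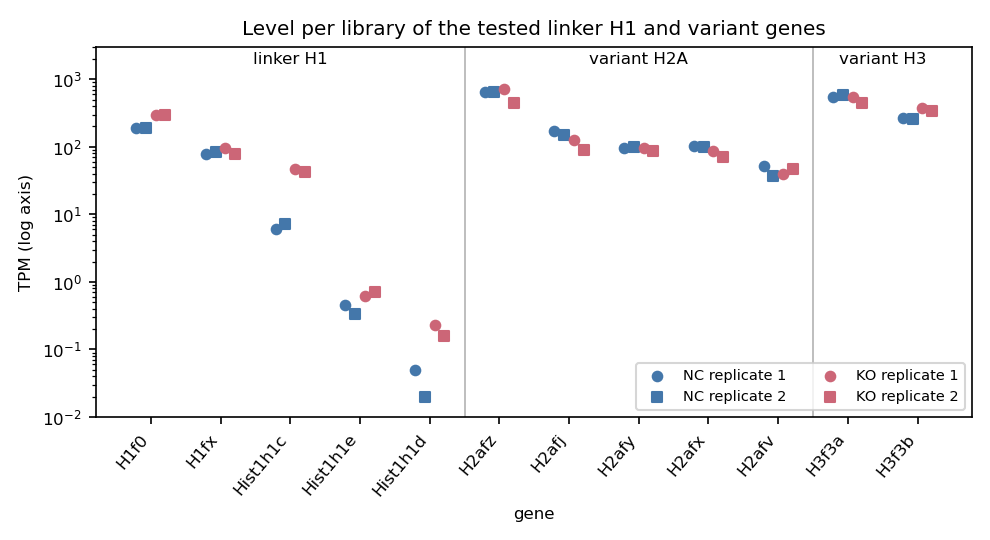
TPM (y axis, log scale) in each of the 4 libraries of the 12 tested linker H1 and variant genes (x axis, by class); blue points are NC and red points KO, with circles for replicate 1 and squares for replicate 2. Hist1h1c separates the groups by the widest margin among the genes above 1 TPM, with 6.09 and 7.23 in NC against 47.6 and 42.7 in KO, while H2afz at 640, 650, 723 and 441 does not.

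In order of mean TPM over the 4 libraries, the leading members were H2afz (614), H3f3a (527), H3f3b (308), H1f0 (241), H2afj (135), H2afy (94.2), H2afx (89.0), H1fx (83.8) and H2afv (43.7). Within NC, H2afy at 97.5 ± 2.46 TPM and H2afx at 99.8 ± 2.35 TPM (SD, n = 2) did not differ beyond their spread. In KO, H2afz at 582 ± 199.5 TPM and H3f3a at 497 ± 80.9 TPM (SD, n = 2) did not either. By the mean over the 4 libraries, the most abundant clustered gene, Hist1h2ap, stood below all 9 at 29.2 TPM. In the KO libraries alone, Hist1h1c stood above Hist1h2ap.

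Among the 69 genes with clustered symbols, the linker genes of the cluster included, the annotated end of the transcript went with how many reads a gene had. The 18 genes with a stem-loop and more than 300 annotated bases after it had a median of 29.3 counts over the 4 libraries, 9 of them were tested and 5 were higher in KO, beside 19.7% of all tested genes; nothing is read from these calls. The 28 genes with a stem-loop and at most 300 bases after it had a median of 2.79 counts, 8 had none, 3 were tested and 1 was higher. Exceptions in this band were Hist1h2ap, with 3 annotated bases after the stem-loop and 328 counts, and Hist2h2aa2. The 4 genes with no stem-loop but more than 300 bases after the stop codon, Hist1h2bc, Hist2h2be, Hist1h2br and Hist1h2bq, had a median of 226.6 counts, and 17 genes with neither had a median of 0. Longer annotated transcripts also offer more bases to count, and no part of this pattern was tested.

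**Figure D4:**
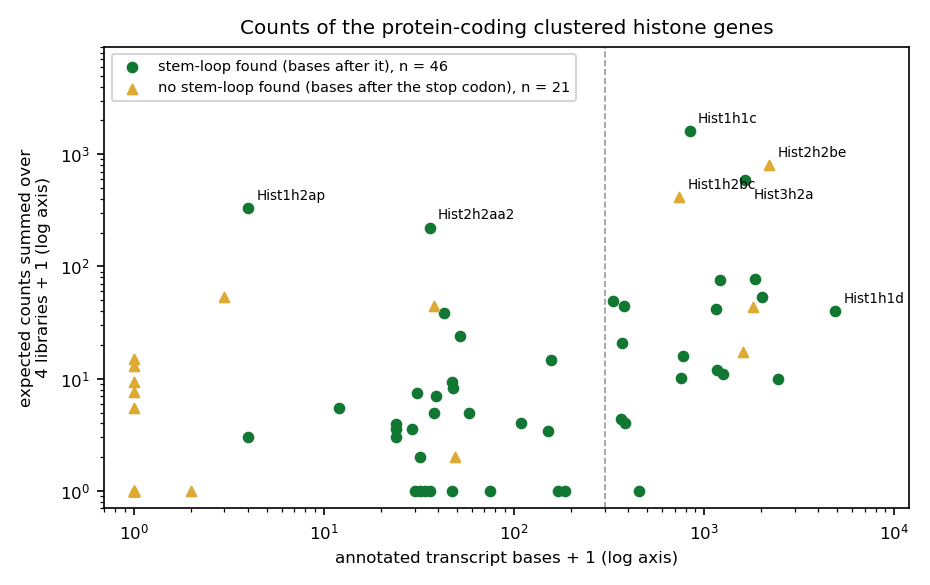
Expected counts summed over the 4 libraries plus 1 (y axis, log scale) against annotated transcript bases plus 1 (x axis, log scale), counted after the stem-loop where one was found (circles, 46 genes) and after the stop codon otherwise (triangles, 21 genes), for protein-coding genes with clustered symbols; the dashed line marks 300 bases. Most genes left of the line have few or no counts, with Hist1h2ap and Hist2h2aa2 as exceptions. Nearly all triangles left of the line have at most 2 annotated bases after the stop codon, where no stem-loop could be found.

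By position, the Hist1 genes on chromosome 13 held 56 members, of which 12 were tested, 6 were higher and 0 lower, beside 19.7% higher and 18.2% lower over all tested genes; all but Hist1h2al lie within chr13:21715763-23934851. The Hist2 cluster on chromosome 3 (chr3:96219865-96270132) held 10, of which 4 were tested, 1 was higher and 1 lower. There were 14 pairs of members that start back to back within 1000 bases. In 1 of them, Hist1h2ac and Hist1h2bc with 250 bases between their starts, both genes were called, and both were higher. Hist1h2ap, not called, and Hist1h2br, called higher, start 235 bases apart, and Hist2h2be, called lower, starts 238 bases from Hist2h2ac, which had 4 counts in all.

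Most of the genes listed for handling histones and their mRNA, or for S phase, had negative values in KO, unlike the clustered histone sum. The S phase genes serve DNA replication and nucleotide synthesis and do not themselves make or place histones. Of 71 genes listed in all, 69 were matched and tested, 3 were higher and 31 lower in KO, beside 19.7% and 18.2% of all tested genes. A negative log2 fold change was seen in 60, and the median over the 69 was -0.23. On either TPM scale 14 were called, 1 higher and 13 lower. In S phase genes, 0 of 16 were higher and 13 were lower, and all 16 values were negative, with a median of -0.56. Tyms, which makes thymidylate, had 34.5 and 34.7 CPM in NC against 18.1 and 14.1 in KO (log2 fold change -1.10, SE 0.13, edgeR adjusted p = 2.66e-07). Rrm2, a subunit of ribonucleotide reductase, had 116 and 114 CPM in NC against 73.4 and 51.7 in KO (-0.88). Mcm5, part of the replicative helicase, had 140 and 153 CPM in NC against 98.7 and 72.1 in KO (-0.78). In all 3 genes KO replicate 2 was the lowest library and the groups did not overlap. The part of these S phase values in the histone values was not tested.

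Of 17 genes that transcribe and process replication histone mRNA, 0 were higher and 3 lower, beside 19.7% and 18.2% of all tested genes. Slbp, the stem-loop binding protein, had 31.1 and 28.3 CPM in NC against 26.5 and 24.3 in KO and was not called (-0.23, SE 0.12, edgeR adjusted p = 0.144). Npat, the activator at histone clusters, had 44.5 and 41.4 CPM in NC against 34.6 and 39.4 in KO and was not called either (-0.21, SE 0.11, edgeR adjusted p = 0.119), although with the length trend removed it was (-0.42). Ccne2, a cyclin of S phase entry, was lower at -0.65 in counts, but on both TPM scales the value was 0.04 with the other sign, and its exons overlap Ints8 on the other strand. The cleavage factors Cstf2 and Cpsf2 were lower at -0.38 each; neither was called on either TPM scale, and Cpsf2 lost its call without NC replicate 2 (-0.35) or without KO replicate 2 (-0.32). Of 4 decay genes, Upf1 was lower (-0.46), though not on either TPM scale (limma adjusted p = 0.112 and 0.111). Dis3l2 was higher (0.34, edgeR adjusted p = 0.0445), with a call lost without NC replicate 1 (0.33), NC replicate 2 (0.37) or KO replicate 2 (0.22), under DESeq2, with no filter, with the length trend removed and on both TPM scales.

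Of 17 chaperone and assembly genes, 1 was higher and 11 lower, beside 19.7% and 18.2% of all tested genes. Rbbp4, a histone-binding subunit of the CAF-1 assembly complex, had 108 and 115 CPM in NC against 83.4 and 80.0 in KO (-0.45, SE 0.09, edgeR adjusted p = 0.000368). Set was lower at -0.44, and Spty2d1, a histone chaperone, was higher at 0.48. On both TPM scales the calls of these 3 genes were lost (limma adjusted p on log2(TPM + 1) of 0.0761, 0.105 and 0.0536). Of 15 genes for deposition of H3.3 and H2A variants, 1 was higher and 3 lower, beside the same shares of all tested genes. Atrx, which with Daxx places H3.3 at repeats, had 92.4 and 91.1 CPM in NC against 137 and 166 in KO (0.73, SE 0.10, edgeR adjusted p = 2.3e-06). Znhit1 and Vps72, subunits of the SRCAP complex that inserts H2A.Z, were lower at -0.56 and -0.32, and the Vps72 call was lost without NC replicate 1 (-0.22, adjusted p = 0.176) and on both TPM scales (limma adjusted p = 0.124 and 0.126).

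**Figure D5:**
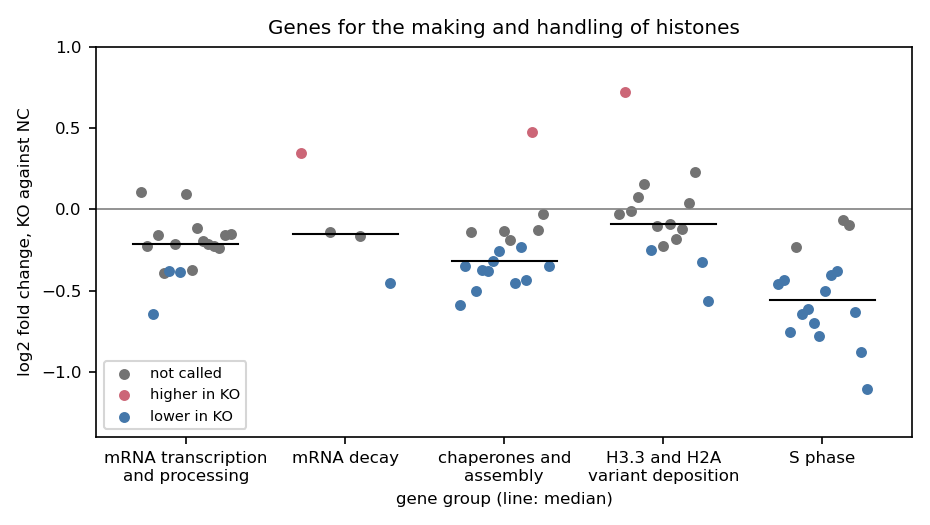
Log2 fold change of KO against NC (y axis) for the 69 tested genes listed for histone handling or for S phase, in 5 groups (x axis). Each point is a gene, coloured by call, and the black line is the group median. The S phase group has the lowest median, -0.56, with all 16 points below 0.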

How the data were processed

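RNA from 4 samples was measured, 2 NC and 2 KO, placed in groups by title and genotype. Per the submitters' processing notes, FastQC, STAR, RSEM and DESeq2 were used with GRCm38 (mm10), without versions or roles. The authors deposited 1 file per sample with an expected count, TPM, FPKM, transcript length and effective length for each gene, per the file headers. The deposited expected counts are not normalised. The authors' TPM are scaled by effective length, and the deposited FPKM were not used. The annotation release and strand setting of the counting are not given in the sources used here. Rounding the expected counts changed no library's total by more than 0.000188%. There were 0 unused columns of per-sample values.

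Genes passing edgeR's filterByExpr (12510, holding 99.9% of counts) were tested with the quasi-likelihood test (edgeR 4.0.16, R 4.3.3) with TMM factors between 0.981 and 1.02, group as the only term, and Benjamini-Hochberg adjustment over all genes. SEs were derived from each gene's fitted variance under the model. The SD from 2 samples is poorly known, so the tests lean on spread shared across genes. Intervals cover counting error and that spread; PCR copies were not separated. The 12 alternatives were DESeq2 1.42.0, plain and upper-quartile scaling, no filter, limma 3.58.1 on log2(TPM + 1) and log2(TPM + 0.1), removal of a length trend, a replicate block, and each library left out. The procedure was tested on simulated data, made with 1 common spread for all genes, which real genes need not share. There 65.2% of 1.5-fold changes were called with the right sign, against 98.5% of 2-fold and 96.9% of 4-fold changes. Gene models and stem-loops came from GENCODE M21, matched for 54809 genes by ID without version, and promoters from RefSeq GRCm38.p6; positions are 1-based.

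The members and lists were chosen with earlier results of these data known. Named members are all tested linker and variant genes, the 3 clustered genes of each core type with the highest mean TPM, and the 4 largest called rises and falls. Named supply genes are the up to 3 with the lowest p among those called per group, with Slbp and Npat. Other members were named after their values were seen. Zcchc6 and Zcchc11 were not matched by symbol.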

Additional observations from a re-analysis of the deposited data

How the results depend on the processing

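Of the 15 called members, 6 kept their call and direction under all 12 alternatives (Hist1h1c, H1f0, Hist1h2bc, Hist1h4i, Hist2h2aa2 and H2afj) and 9 lost the call under at least 1. All 12 start from the authors' division of shared reads among genes, so they do not vary it. Over all genes, 4741 were called; on log2(TPM + 1) it was 2158 (1467 higher, 691 lower) and on log2(TPM + 0.1) 2099 (1427 higher, 672 lower). Members called lower were 5, against 3 under DESeq2 and 1 on either TPM scale. Called supply genes were 34, against 14 on either TPM scale (1 higher, 13 lower). The clustered core median of 0.67 was 0.73 under DESeq2, 0.44 and 0.82 on log2(TPM + 1) and log2(TPM + 0.1), and 0.65 to 0.86 with 1 library left out. The linker median of 0.70 was 0.25 and 0.63 on those TPM scales, 0.64 with the length trend removed, and 0.57 to 0.93 with 1 library left out. The variant median of -0.36 was -0.18 on either TPM scale and -0.42 to -0.22 with 1 library left out, the last without KO replicate 2. The log2 ratio of the clustered core sum, 0.40, was 0.44 with plain library size, 0.43 with upper-quartile factors and 0.61 in TPM. For the linker sum, 0.60, these were 0.63, 0.62 and 0.63, and the variant H2A sum, -0.38, was -0.21 in TPM. Leaving out 1 library gave 7 to 9 members higher and 4 to 5 lower. The cause of these shifts was not tested.

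Signs reversed in 4 of the genes named by the rule, and in Hist1h2ad (-0.23 without NC replicate 1) and Hist2h3c2 (-0.34 without NC replicate 2). H1fx was -0.051 without KO replicate 1 (range with 1 library left out -0.051 to 0.18). H2afv was 0.028 with plain library size, 0.021 with upper-quartile factors, 0.017 with the length trend removed, 0.10 without NC replicate 1 and 0.020 without KO replicate 2 (range with 1 library left out -0.10 to 0.10). Hist2h3b was 0.019 under DESeq2, 0.030 with plain library size, 0.022 with upper-quartile factors, 0.0075 on log2(TPM + 1), 0.074 with the length trend removed, 0.42 without NC replicate 2 and 0.64 without KO replicate 2 (range with 1 library left out -1.14 to 0.64). Ccne2 was 0.037 on either TPM scale. The cause was not tested.

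With the replicate block, 5006 genes were called, 10 members were higher and 5 lower, the same genes as without it, 36 supply genes were called, and the clustered core median was 0.75. Same-numbered samples share only a number: their deviations from the group means correlated at -0.012 across genes. With a lone sample in a group, its spread is assumed to be that of the other group. Low counts were most common among the clustered genes: of the 49 members with under 10 counts over the 4 libraries, 40 were clustered core genes. No count at all was seen in 24 of the 87 members. Whether depth or another reason lay behind these low counts was not tested.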
